A study of Mus musculus with 42 samples.

Results

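Sprr1a, Sprr2h, Lor, Plet1, Ly6a, Anxa1 and Clu are 7 of the 19206 named genes in 12 tables of RNA sequencing from mouse colon. Each gene was found by its symbol in every table that holds it. They were chosen from earlier looks at these data, as repair and squamous-like epithelial genes, on the readout of colonic organoids given cytokines, where Plet1 and Sprr2h were higher and Lor was lower. The organoid values are therefore given as a description, without a test, and the sorted cells of knockout and control mice are the only place where the genes are tested.

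The first 3 genes belong to the cornified envelope, the sheet of cross-linked protein that forms under the membrane of stratified squamous cells. Sprr1a and Sprr2h encode small proline-rich proteins that act as cross-bridges in that sheet, and Lor encodes loricrin, its main structural protein in the epidermis. The other 4 are known from wounded or fetal gut epithelium: Plet1 encodes a surface protein of progenitor cells that takes part in epithelial repair, Ly6a encodes the surface protein Sca-1, Anxa1 encodes annexin A1, a phospholipid-binding protein that promotes wound closure, and Clu encodes clusterin, a secreted chaperone that marks revival stem cells after injury.

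The mice carried Gli1CreERT2, a recombinase made under control of Gli1 and switched on by tamoxifen, which every group received by injection, controls included (subcutaneous by the labels, intraperitoneal by the methods). Cells were collected at day 30 from the proximal or the distal colon of adult mice of both sexes. Goblet cells were sorted as Muc2-mCherry+ cells from controls (GWTM2), from mice with Smad4 knocked out in Gli1+ cells (GS4M2) and from mice with Alk3, the BMP receptor gene Bmpr1a, knocked out in Gli1+ cells (GA3M2). By the labels the deletion is in Gli1+ cells, so goblet cells are not its target. Gli1+ stromal cells were sorted by tdTomato from matching mice (GWTT, GS4T and GA3T). Each sorted group had 2 libraries. Wild-type organoids grown from colon epithelium in medium with EGF, Noggin, R-spondin1, Wnt3a and the Wnt activator CHIR had no further treatment, 10 nM IL-1α plus IL-1β (IL-1 below), or 10 nM IL-17A, for 12 or 72 h, with 3 libraries per group. The labels do not say which libraries come from separate mice or cultures, so a p-value measures the spread between these libraries only.

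The 42 libraries held 14200368 to 23650427 reads on named genes. Each table pairs 1 treated group with its control and was normalized by itself, so a control library has slightly different values in the tables it appears in, and the same controls serve both knockouts or both cytokines. Of the 3 control libraries at 72 h, 2 held the same reads as control libraries at 12 h (72 h libraries 1 and 4 and 12 h libraries 2 and 4). A further 3 pairs within groups were far closer than the other 27 pairs, with a chi-square per gene of 3.03 to 3.32 against 18.1 to 212: control 72 h libraries 2 and 4, IL-1 12 h libraries 3 and 4 and IL-17A 12 h libraries 3 and 4. At least 100 reads of 4 Y-linked genes were found in 10 of 12 Muc2-mCherry+, 3 of 12 Gli1-tdTomato+ and 10 of 18 organoid libraries, so groups differ in the sex of their libraries. The other libraries had 0, except GA3T proximal library 2 with 3 reads and IL-1 72 h library 2 with 30 reads. Among Gli1-tdTomato+ cells, normalized counts of Smad4 were 1604 and 1673 in proximal controls and 705 and 835 in GS4T, and 1781 and 1703 against 680.3 and 1171 in the distal colon. Bmpr1a had 2960.0 and 3220.2 in proximal controls and 2233 and 1842 in GA3T, and 3359 and 3485 against 2203 and 2043 in the distal colon. Gli1 itself was at 23.9 in GS4T proximal library 2 and 34.7 in GA3T proximal library 2, against 642 to 1864 in the other Gli1-tdTomato+ libraries. The labels give intestinal epithelium as the tissue of every library, yet 6 fibroblast markers summed to 40370.3 to 57322 RPM (reads of a gene scaled to a common library total) in the Gli1-tdTomato+ libraries.

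In the mouse genome (GRCm38), Sprr1a (ENSMUSG00000050359, chr3:92483952-92485895, minus strand), Sprr2h (ENSMUSG00000046259, chr3:92385685-92387324, plus strand) and Lor (ENSMUSG00000043165, chr3:92080271-92083142, minus strand) lie in 1 cluster on chromosome 3. Plet1 (ENSMUSG00000032068) is at chr9:50494525-50505482 on the plus strand, Ly6a (ENSMUSG00000075602) at chr15:74994877-74998031 on the minus strand, Anxa1 (ENSMUSG00000024659) at chr19:20373428-20390944 on the minus strand and Clu (ENSMUSG00000022037) at chr14:65968483-65981547 on the plus strand. Of the 50-base windows of Ly6a transcripts, 19.0% also occur in its neighbours Ly6c1, Ly6c2 and Ly6i or in I830127L07Rik, so its counts can share reads with them. The share was 0.790% for Plet1 and 0 for the other members. Plet1os lies antisense to Plet1, and 1500015L24Rik opposite Anxa1. The strand of the counting is not given in the sources used here, so reads of such partners cannot be told apart.

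The promoters of the 3 cornified envelope genes and of Plet1, the genes with the widest range between organoid groups, are shown because they share 2 short motifs. Each is the 250 bases before the RefSeq start on GRCm38.p6, 5′ to 3′ on the strand of the gene, with capitals on the AP-1 motif (TGANTCA) and on the TATA box (TATAAA).
Sprr1a, chr3:92485882-92486131, minus strand: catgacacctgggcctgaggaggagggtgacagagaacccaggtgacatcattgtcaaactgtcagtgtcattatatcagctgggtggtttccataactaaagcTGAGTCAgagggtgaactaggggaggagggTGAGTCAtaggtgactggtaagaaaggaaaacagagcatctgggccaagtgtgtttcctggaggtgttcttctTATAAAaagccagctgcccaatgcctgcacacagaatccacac
Sprr2h, chr3:92385435-92385684, plus strand: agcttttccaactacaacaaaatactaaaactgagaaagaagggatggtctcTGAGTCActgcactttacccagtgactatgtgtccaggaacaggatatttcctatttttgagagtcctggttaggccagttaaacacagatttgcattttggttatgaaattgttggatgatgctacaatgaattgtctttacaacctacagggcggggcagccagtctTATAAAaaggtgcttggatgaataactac
Lor, chr3:92083143-92083392, minus strand: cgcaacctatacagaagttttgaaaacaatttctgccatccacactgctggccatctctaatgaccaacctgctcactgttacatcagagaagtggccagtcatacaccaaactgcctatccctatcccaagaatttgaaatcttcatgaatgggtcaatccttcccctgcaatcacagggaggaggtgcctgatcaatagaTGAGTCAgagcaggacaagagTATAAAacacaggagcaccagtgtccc
Plet1, chr9:50494275-50494524, plus strand: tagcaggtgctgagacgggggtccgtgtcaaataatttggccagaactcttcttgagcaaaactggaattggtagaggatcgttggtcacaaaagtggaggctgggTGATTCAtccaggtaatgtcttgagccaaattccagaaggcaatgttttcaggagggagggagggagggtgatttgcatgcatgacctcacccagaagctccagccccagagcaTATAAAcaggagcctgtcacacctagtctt
The AP-1 motif, searched on both strands, was found in 4 of the 5 members with a RefSeq promoter here, against 6.75% of 32851 promoters of the same length. In Sprr1a it stood at -146 and -116 from the start, in Sprr2h at -198, in Lor at -48 and in Plet1 at -144. A TATA box was found in 5 of 5 (Anxa1 being the other), against 12.4% of promoters, and lay between -43 and -27 at its first base in the 4 shown. The TEAD motif GGAATG was in the Anxa1 promoter only (12.6% of all promoters), the KLF motif GGGCGG in that of Sprr2h only (32.7%), and the NF-kB motif in none of the 5 (7.25%). Promoters of Ly6a and Clu were not searched. A match describes the letters in this window and is not evidence of binding.

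The members did not form 1 epithelial set by level. To compare genes, RPM was divided by the exon length in kb. Plet1 was a goblet cell transcript in the controls, at 23.6 to 191 (median 125, n = 4 libraries over both segments) in Muc2-mCherry+ cells, against 0.506 to 1.63 in the 4 distinct control organoid libraries and 0.0629 to 0.318 in the 4 control Gli1-tdTomato+ libraries, with no overlap between the 3 kinds of sample. These are bulk samples, in which fewer cells of a type and less RNA per cell cannot be told apart. Sprr1a ran the other way between the epithelial samples, at 70.2 to 119.8 in control organoids, 5.76 to 13.4 in control goblet cells and 0 to 2.46 in control stroma. Sprr2h at 2.03 to 4.34 and Lor at 2.21 to 8.54 were low transcripts of control organoids.

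In the controls, Ly6a, Anxa1 and Clu were at least as high in the stroma as in epithelial cells. Ly6a had 369 to 587 RPM per kb in control Gli1-tdTomato+ cells, 239 to 387 in control organoids and 60.7 to 397 in control goblet cells. Anxa1 had 102 to 153, 94.5 to 137 and 20.4 to 51.3 in the same order, where stroma and organoids overlap and goblet cells lie below both. Clu had 3.55 to 25.9 in stroma, 0.804 to 4.79 in organoids and 0.401 to 1.60 in goblet cells, and neighbours in that order overlap. Calling these 3 genes epithelial therefore does not hold across the controls.

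Across the 18 groups, mean levels of Plet1 on this scale spanned from goblet cells to control stroma. It was highest in proximal goblet cells, at 182 in GA3M2, 161 in GWTM2 and 151 in GS4M2, groups whose libraries overlap. IL-17A organoids at 72 h followed with 94.9, and the lowest means were 0.190 in GWTT proximal and 0.169 in GWTT distal stroma. Sprr1a was highest in organoids given IL-1 or IL-17A for 72 h, at 539 and 534, which do not differ beyond their spread. Clu was highest in GS4T stroma, at 54.9 in the distal and 40.4 in the proximal colon. Ly6a was highest in organoids at 72 h, at 703 with IL-17A and 690 with IL-1. Anxa1 was highest in IL-17A organoids at 72 h, at 156. For both genes, libraries of these groups overlap those of control stroma.

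In organoids at 12 h, Plet1 and Sprr2h were higher with either cytokine in every library, and, apart from Ly6a with IL-1, the other 5 members overlapped their controls. Plet1 had 15.9, 50.5 and 44.2 normalized counts in controls (reads scaled to a common library size within the table) and 191, 284 and 315 with IL-1. In the IL-17A table the same controls had 16.7, 52.9 and 46.3, and the treated libraries 404, 756 and 623. No treated library overlapped a control, and the log2 fold changes were 2.93 (SE 0.45) and 4.02 (SE 0.46).

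Sprr2h had 49.7, 24.3 and 50.4 in controls and 135, 139.8 and 159 with IL-1, a log2 fold change of 1.85 (SE 0.32). With IL-17A it had 390.4, 582 and 464 against 52.1, 25.5 and 52.8, a log2 fold change of 3.48 (SE 0.32). Again the groups did not overlap. Sprr1a, already abundant, was at 914, 1049.8 and 1492 in controls and 1254, 2088 and 2072 with IL-1, so the lowest treated library lay within the control range.

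Of the 7 members, 3 lay above all controls with IL-1 at 12 h (Sprr2h, Plet1 and Ly6a), where 9.52% of all genes tested did not overlap in either direction, and 2 with IL-17A (Sprr2h and Plet1), against 10.9%. None lay below. Ly6a had 5333, 4579 and 7207 in controls and 7353, 8872 and 9147 with IL-1, which are close at the boundary. On the RPM scale Ly6a overlapped, at 288 to 467 in controls and 446 to 564 with IL-1. Lor had 109, 62.7 and 201 in controls, 86.8, 117 and 123 with IL-1 and, in the other table, 44.8, 96.9 and 91.1 with IL-17A against 114, 65.7 and 210.1, with overlap in both. Anxa1 and Clu overlapped their controls with both cytokines, with log2 fold changes of 0.40 (SE 0.24) and 0.85 (SE 0.72) for IL-1 and 0.50 (SE 0.21) and 1.09 (SE 0.66) for IL-17A.

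At 72 h the cornified envelope genes went apart. Control libraries 1 and 4 hold the reads of 12 h controls, and control library 2 is near-identical to library 4. The time these were cultured for is thus uncertain, so cytokine and time in culture cannot be told apart at 72 h. Sprr1a was at 995, 1211 and 1431 in controls and at 8047, 7469 and 8534 with IL-1, a log2 fold change of 2.74 (SE 0.16), and at 7985, 5104 and 11069 with IL-17A, a log2 fold change of 2.68 (SE 0.30). Sprr2h had 23.1, 42.9 and 48.3 in controls, 637, 278 and 395 with IL-1 and 745, 347 and 1300.1 with IL-17A. Both small proline-rich genes were above every control in all 6 treated libraries.

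Lor had 59.4, 229 and 192 in controls. With IL-17A it had 3.36, 7.53 and 12.6 against 59.3, 227 and 192 in that table, all 3 below every control, and the log2 fold change was -4.12 (SE 0.66). With IL-1 it had 3.61, 359.7 and 34.0, from far below to above the controls, and the log2 fold change of -1.84 had an SE of 1.39. The libraries with at least 100 Y-linked reads had the low values: at 72 h these were the control with 59.4, the IL-1 libraries with 3.61 and 34.0 and all 3 IL-17A libraries, while the controls at 229 and 192 had 0 and the IL-1 library at 359.7 had 30. With library sex as a block in the fit, a step added after the data were seen, the log2 fold change with IL-17A was -2.92. That value rests on control library 1 alone, the only 72 h control with Y-linked reads. Its reads are those of 12 h control library 2. The part of sex in the Lor values was not tested further.

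Plet1 had the largest log2 fold change of the members at 72 h. It was at 47.9, 41.0 and 42.4 in controls and at 2251, 287 and 555 with IL-1, a log2 fold change of 3.99 (SE 0.66). With IL-17A it reached 2438, 2039 and 6051, a log2 fold change of 6.13 (SE 0.40). The treated libraries of 1 group differed several-fold from each other, and all lay above the controls.

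Ly6a was at 4341, 6819 and 6914 in controls, 25609, 10825 and 10073 with IL-1 and 21597, 11450.0 and 13512 with IL-17A, above the controls in all 6 treated libraries, with log2 fold changes of 1.26 (SE 0.37) and 1.35 (SE 0.30). Anxa1 had 4516, 5569 and 5922 in controls, 9535, 6444 and 6373 with IL-1 and 9359.5, 7563 and 7859 with IL-17A, also without overlap, and with smaller differences of 0.46 (SE 0.20) and 0.64 (SE 0.17). Clu spread widely, at 41.7, 248 and 234 in controls, 13.2, 822 and 276 with IL-1 and 10.1, 32.9 and 283 with IL-17A, and overlapped in both. In all, 5 members were above all controls with each cytokine at 72 h, and Lor was below with IL-17A. The share of all genes tested without overlap was 54.7% with IL-1 and 45.3% with IL-17A, and since these contrasts led to the choice of genes, nothing is read from the counts. On the RPM scale Anxa1 overlapped its controls (299 to 399.7) with IL-1 (331 to 495) and with IL-17A (382 to 499.7).

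Marker sums also differed between the organoid groups at 72 h. The 5 epithelial markers summed to 6480.1 to 7406 RPM in controls, 9087 to 10481 with IL-1 and 8661 to 9610.4 with IL-17A. The 7 goblet markers summed to 7069 to 7811, 2429 to 10762 and 2415 to 9782. Per 1000 epithelial-marker reads Anxa1 had 40.4 to 61.7 reads in controls, 36.4 to 50.8 with IL-1 and 39.7 to 55.8 with IL-17A, all overlapping. The part of these sums in the other values was not tested.

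**Figure D1:**
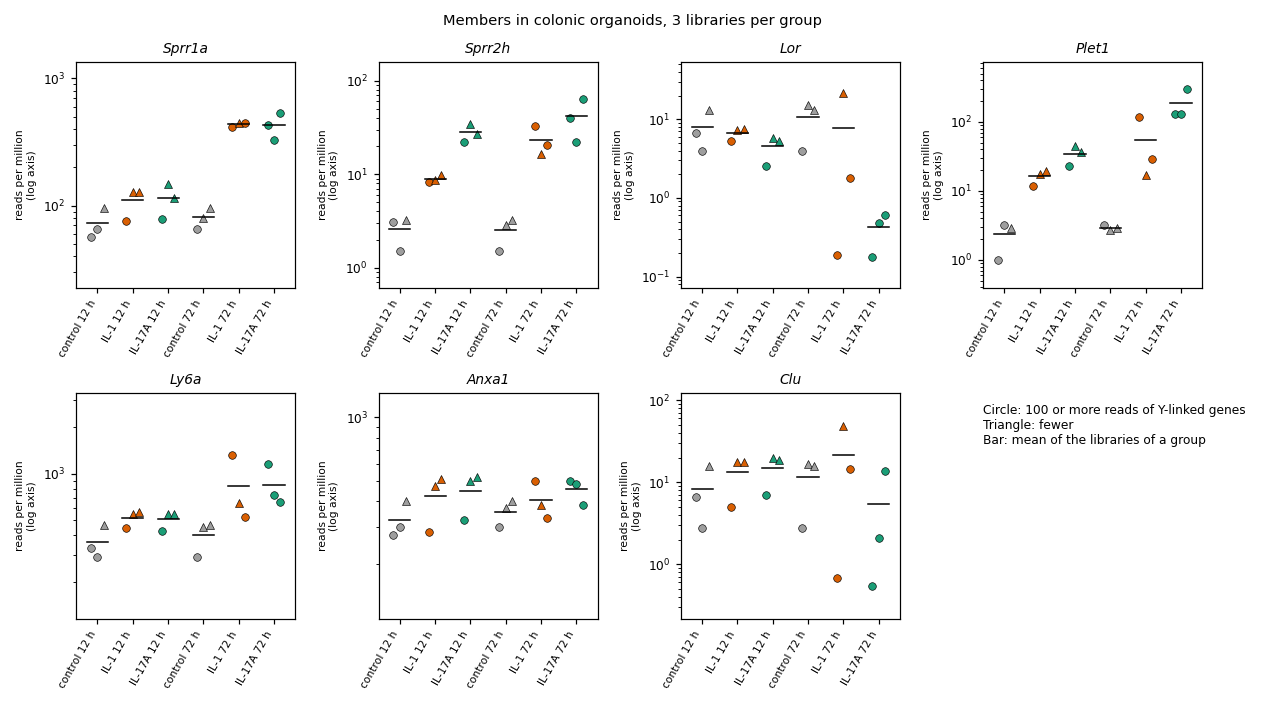
RPM of each member (log axis) in the 3 libraries of each organoid group, with bars at the group means, circles for libraries with at least 100 reads of Y-linked genes and triangles for those with fewer. Plet1 and Sprr2h lie above the controls in all 12 treated libraries, and Lor lies below every control at 72 h in the 3 IL-17A libraries and in 2 of the 3 IL-1 libraries, all of which are circles.

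The related genes, none of them members, were taken from 4 lists of 71 genes in all: cornified envelope and cross-linking enzymes, squamous keratins and desmosomes, fetal-like and injury-associated genes, and the Ly6 family. A gene was called where limma's moderated test on log2(normalized count + 1) gave a Benjamini-Hochberg adjusted p below 0.05 and a log2 fold change of at least 1 in size. Because of the shared controls, cytokine and time in culture cannot be told apart in the 72 h calls either. With IL-1 at 72 h, 12 of 43 tested were called, all higher, with 23% of all genes called, and the median log2 fold change was 0.89 against -0.0017 over all genes. They included the envelope genes Tgm3, a transglutaminase (3.54, adjusted p = 0.0158), and Evpl, envoplakin (2.25, adjusted p = 0.00454), the tight junction gene Cldn4 (1.97, adjusted p = 0.00303), the EGF receptor ligand Areg (2.01, adjusted p = 0.0117), and the Ly6 genes Ly6d (2.89, adjusted p = 0.00244), Ly6c1 (2.40, adjusted p = 0.00426) and Ly6g (2.38, adjusted p = 0.00204).

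With IL-17A at 72 h, 5 of 40 were called, all higher, against 7.97% of all genes: Areg (2.39, adjusted p = 0.0205), Cldn4 (1.98, adjusted p = 0.0345), Tnfrsf12a, the receptor of TWEAK (1.11, adjusted p = 0.0356), Ly6d (3.25, adjusted p = 0.0334) and Ly6g (2.02, adjusted p = 0.0454), all by limma. The count was 2 without control library 1, 0 without control library 2, control library 4 or IL-17A library 1, 16 without IL-17A library 2 and 2 without IL-17A library 3. It was 0 with near-identical libraries averaged. Library sex as a block leaves only control library 1 to compare, so no count is given for it. At 12 h limma called 0 of 41 for either cytokine, with 0.0543% and 0.0386% of all genes called. At an unadjusted p below 0.05 the counts were 2 for IL-1 and 3 for IL-17A (0.923% and 1.08% of all genes), DESeq2 called 1 and 2 (0.334% and 0.394%), and the largest value among the genes named was Sprr2b, at 3.45 (adjusted p = 0.318) for IL-1.

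The genes whose levels ran closest to Sprr2h and Plet1 over the 18 organoid libraries (16 of them distinct) were among the same few. By Pearson r of log2(RPM + 1) among 11503 genes, Sprr2h was nearest Tac1 (0.962), Nfkbiz (0.959) and Duox2 (0.929), and Plet1 nearest Nfkbiz (0.959), Tac1 (0.956) and Rnd3 (0.947). Sprr2h and Plet1 had r = 0.937 with each other. Sprr1a was nearest Camk2n1 and Gch1 (0.975 each) and Klf6 (0.971). Ly6a was nearest Cd14 (0.971), the co-receptor for lipopolysaccharide, Ugp2 (0.958) and Abcc4 (0.957), Anxa1 nearest Erp44 (0.949), Cep85 (0.921) and Ptp4a2 (0.913), Lor nearest Rap2a and Commd3 (0.932 each) and Cisd3 (0.928), and Clu nearest Tm4sf1 (0.956), Abo (0.952) and Ms4a12 (0.947). Lor and Clu had r = 0.743 with each other, and Lor and Plet1 -0.747. These libraries share treatments, and the values are a description.

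In goblet cells of mice with Smad4 knocked out in the stroma, Clu was the only member that limma called, and only in the proximal colon. Clu had 42.9 and 93.9 normalized counts in proximal GWTM2 and 711 and 623 in GS4M2 (68.4 ± 36.1 against 667 ± 62.0, SD, n = 2). Both knockout libraries lay far above both controls, a 10.3-fold difference with a log2 fold change of 3.37 (SE 0.36, limma adjusted p = 0.0361). Genes with a mean of at least 10 normalized counts in a table were tested, which 5 of the 7 members reached in each table of GS4M2, GS4T and GA3T, 6 in those of GA3M2 and all 7 in those of organoids. Clu was 1 of 7 members called, where 0.325% of all genes were. By edgeR 1 member was also called (0.386% of all genes), and by DESeq2 or by an unadjusted p below 0.05 with the fold 2 were (2.04% and 4.28%). The adjusted p was 0.102 without GS4M2 library 1 and 0.0569 without GS4M2 library 2. The sources of the study differ in which proximal columns they name GS4M2. The names in the deposited tables are used here, and with the other naming every direction in proximal GS4M2 would be reversed. Under the deposited names, the proximal GWTM2 libraries hold the same reads in the GS4M2 and the GA3M2 tables. In the distal colon Clu was at 25.1 and 24.9 in controls and 22.8 and 26.7 in GS4M2.

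The other members did not pass by limma in proximal goblet cells. Sprr1a had 79.0 and 107 in controls and 198 and 367 in GS4M2, without overlap (log2 fold change 1.54, SE 0.33, limma adjusted p = 0.124, DESeq2 adjusted p = 0.00123). Anxa1 had 1027 and 1017 against 1497 and 1468, also without overlap (0.54, SE 0.10, limma adjusted p = 0.0917). Plet1, at 6317 and 4376 against 5304 and 4494, and Ly6a, at 2726 and 1251 against 1827 and 2719, overlapped. So 3 members were above and 0 below their controls, where 50.2% of all genes did not overlap in either direction. Sprr2h and Lor were not analysed there.

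In distal goblet cells of GS4M2 mice limma and edgeR called 0 members, as 0% of all genes. DESeq2 also called 0 members (1.12% of all genes), and 0 had an unadjusted p below 0.05 with the fold (2.7%). Plet1 had 4058 and 832 in the controls and 758 and 1107 in GS4M2, and Ly6a 8468 and 1764 against 2681 and 4035, so the controls spanned most of the knockout values. Control library 1, which has no Y-linked reads, was the high one for both genes. Without control library 2, Plet1 had a log2 fold change of -2.15 (limma adjusted p = 0.0156, with 1.33% of all genes called), against -1.0 (SE 0.74, adjusted p = 0.638) with all libraries. Sprr1a had 191 and 166 in controls and 221 and 407 in GS4M2, the 1 member without overlap (against 45.7% of all genes), Anxa1 2643 and 2524 against 2287 and 2911, and Sprr2h 22.1 and 0 against 0.949 and 11. Lor was not analysed there.

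With Alk3 knocked out in the stroma, Sprr1a, Anxa1 and Clu were higher in every goblet cell library of both segments than in the controls, and limma passed none of them. In the proximal colon Sprr1a had 84.1 and 113 in controls and 305 and 789 in GA3M2 (log2 fold change 2.32, SE 0.46, limma adjusted p = 0.155). Anxa1 had 1094 and 1075 against 2678 and 5917 (1.88, SE 0.36, limma adjusted p = 0.152). Clu had 45.7 and 99.3 against 202 and 416 (2.09, SE 0.50, limma adjusted p = 0.202). The knockout libraries differed by about as much from each other as the nearer one did from the controls.

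Ly6a, at 2903 and 1323 against 3691 and 4971, was the 1 other proximal member without overlap (1.13, SE 0.38, limma adjusted p = 0.273). Plet1 had 6725 and 4626 against 8479 and 4689, Sprr2h 5.48 and 0 against 5.03 and 30.4, and Lor 4.57 and 4.56 against 4.03 and 13.8, all overlapping. Sprr2h passed the filter on low values only through its high knockout library. Of the 7 members 4 were above and 0 below, against 52.1% of all genes without overlap. Limma and edgeR called 0 members (0.09% and 0.105% of all genes), 4 had an unadjusted p below 0.05 with the fold (6.83% of all genes), and DESeq2 called 3, namely Sprr1a (adjusted p = 2.19e-05), Anxa1 (adjusted p = 1.12e-05) and Clu (adjusted p = 0.00236), against 3.23% of all genes. Without GA3M2 library 1, Sprr1a (3.00) and Anxa1 (2.45) were called by limma (adjusted p = 0.0338 each), with 7.38% of all genes.

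In the distal colon of GA3M2 mice Clu had 24.0 and 24.0 in controls and 353 and 281 in goblet cells of the knockout, a 12.6-fold difference (log2 fold change 3.66, SE 0.29, limma adjusted p = 0.120). Sprr1a had 182 and 161 against 530.5 and 759 (1.88, SE 0.24, limma adjusted p = 0.186), and Anxa1 2529 and 2436 against 4816 and 6176 (1.14, SE 0.17, limma adjusted p = 0.237). Replicates were close in these 3 genes, and no libraries overlapped.

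Sprr2h, at 21.1 and 0 in distal controls and 28.4 and 41.2 in GA3M2, also did not overlap, which made 4 members above and 0 below, against 44.2% of all genes. Plet1 had 3882 and 803 against 3919.7 and 2044, Ly6a 8101 and 1702 against 5780.2 and 3047, and Lor 4.80 and 8.74 against 12.7 and 0.959. Limma and edgeR called 0 members and 0% of all genes, 3 members had an unadjusted p below 0.05 with the fold (4.11% of all genes), and DESeq2 called 3 (1.83% of all genes): Clu (adjusted p = 4.98e-18), Sprr1a (adjusted p = 2.50e-07) and Anxa1 (adjusted p = 1.61e-05). Control library 1 is the only library here without Y-linked reads. Leaving it out and library sex as a block therefore both rest on control library 2 alone, and are not separate results. Leaving out control library 2 rests on control library 1 alone. Nothing is read from the counts in these fits, which follow. Limma called 6 members without control library 1 (4.92% of all genes), 3 without control library 2 (2.35%) and 6 with library sex as a block (5.06%).

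Cell markers differed between the Alk3 knockout and control libraries of Muc2-mCherry+ cells. The 7 goblet markers summed to 9476 to 12742 RPM in proximal GA3M2 against 30455 to 33949 in controls, and to 14881 to 23872 against 35539 to 62958 in the distal colon. All 7 were listed. Muc2 itself had 179572 and 224217 normalized counts in proximal controls and 18753 and 14042 in GA3M2. For cells sorted on a Muc2 reporter this leaves it uncertain how far the GA3M2 libraries are goblet cells as labelled. The 5 of 6 macrophage markers listed summed to 26.2 to 38.1 RPM in proximal GA3M2 and 5.05 to 5.42 in controls, and the 4 listed to 28.3 to 33.0 against 2.44 to 5.95 in the distal colon. The 5 of 6 fibroblast markers listed summed to 4.36 to 22.4 against 0.252 to 0.404 in the proximal colon, and the 1 listed to 0.470 to 0.855 against 0 to 0.284 in the distal colon. The 2 of 5 neutrophil markers listed summed to 1.25 to 1.32 against 0 proximally and 3.08 to 5.11 against 0 to 1.64 distally. Epithelial markers (5 of 5 listed) summed to 6695 to 10251 in all 12 libraries. The part of these shifts in the members' values was not tested.

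**Figure D2:**
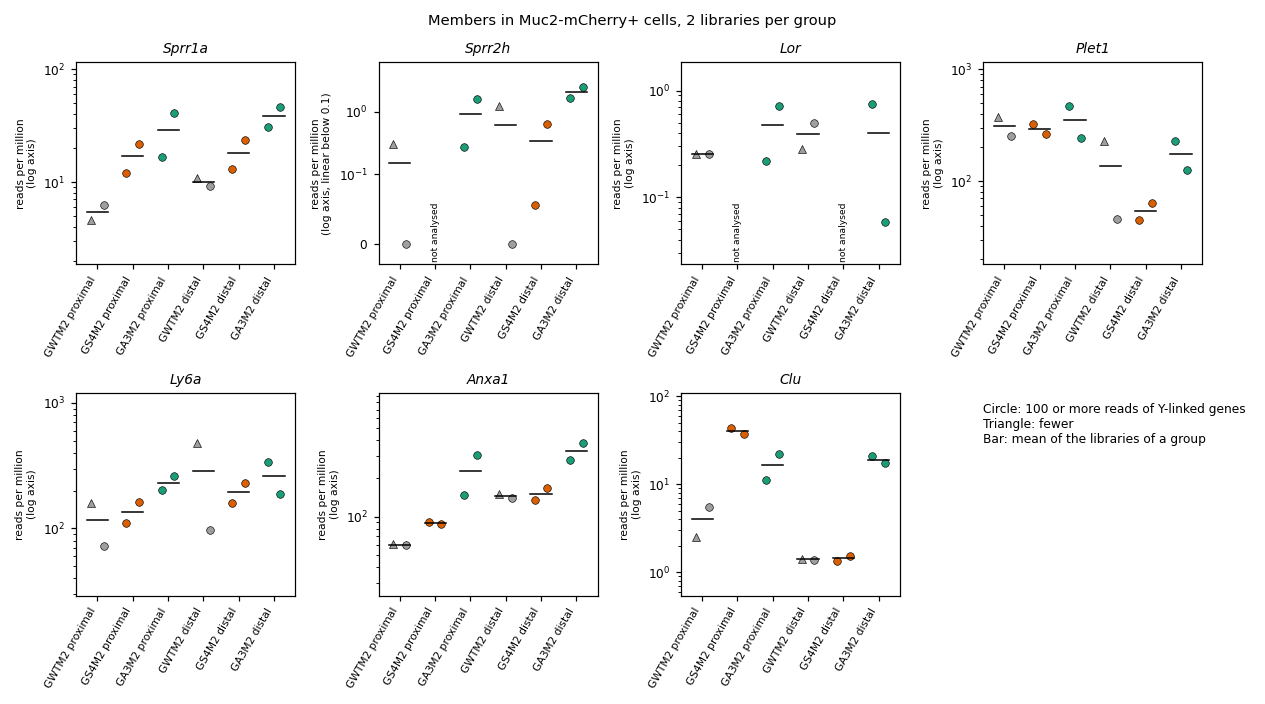
RPM of each member (log axis, linear near 0 where a value is 0) in Muc2-mCherry+ goblet cells. Each group has 2 libraries, and both knockouts stand beside the same controls in the proximal and the distal colon. Clu is at 36.9 and 43.2 in proximal GS4M2, above controls at 2.52 and 5.49. In distal GA3M2 it is at 17.2 and 20.6, above controls at 1.38 and 1.42. Plet1 and Ly6a differ as much between the distal control libraries as between groups.

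Among the 71 related genes, goblet cells gave 1 call. Cldn4 rose in proximal GS4M2, from 298 and 362 to 2066 and 2991 (2.92, SE 0.20, limma adjusted p = 0.0173), 1 of 33 tested. In GA3M2 it had 317 and 382 against 2526 and 6016 in the proximal colon (3.48, adjusted p = 0.0599) and 425 and 534 against 3333 and 5382 in the distal colon (3.15, adjusted p = 0.120), both short of the threshold by limma. Ly6g, a Ly6 family gene, had 18 and 6.48 against 97.7 and 227 in proximal GS4M2 (3.65, adjusted p = 0.0818) and 19.2 and 6.85 against 338 and 1550.5 in proximal GA3M2 (5.85, adjusted p = 0.0864), also uncalled by limma. Limma called 0 of 34 in distal GS4M2, 0 of 35 in proximal GA3M2 and 0 of 35 in distal GA3M2. Their counts at an unadjusted p were 5, 11 and 6 (2.7%, 6.83% and 4.11% of all genes), and with DESeq2 4, 8 and 5 (1.12%, 3.23% and 1.83%).

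In the Gli1+ stromal cells of Smad4 knockouts, Clu rose and Ly6a fell in the proximal colon, and Plet1, near 0 in the controls, was also called. Clu had 206 and 381 in GWTT and 1678 and 2983 in GS4T (293 ± 124 against 2331 ± 923, SD, n = 2), a 7.96-fold difference (log2 fold change 2.99, SE 0.39, limma adjusted p = 0.0136). Plet1 had 2.07 and 10.2 against 73.8 and 263, 23.9-fold (4.58, SE 0.92, limma adjusted p = 0.0345), and passed the filter on low values only through the knockout libraries (adjusted p = 0.0359 with no filter). Ly6a had 11939 and 8564 against 4084 and 5791 (-1.06, SE 0.24, limma adjusted p = 0.0458). The groups did not overlap in any of the 3.

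These 3 of 7 members, or 2 leaving out Plet1, were called where 9.59% of all genes were, 5.24% higher and 4.35% lower. Each call was lost without either knockout library: without GS4T library 1 the adjusted p was 0.0924 for Clu, 0.128 for Plet1 and 0.205 for Ly6a, with 0% of all genes called, and without GS4T library 2 it was 0.0923, 0.198 and 0.107, with 1.4% called. Ly6a also missed the threshold with edgeR (adjusted p = 0.0515) and without control library 1. Library sex as a block sets aside that same library, the only one here with Y-linked reads, and gave a log2 fold change of -0.82 for Ly6a.

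Sprr1a had 0 and 32.8 in proximal controls and 95 and 57.8 in GS4T (3.69, SE 1.67, limma adjusted p = 0.191). Anxa1 had 7516 and 6059 against 5195 and 6489, and Lor 4.14 and 8.20 against 15.7 and 4.98, both overlapping. Thus 3 members were above and 1 below their controls, against 65.4% of all genes without overlap. Sprr2h was not analysed there.

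In the distal colon of GS4T mice Sprr1a rose, and Plet1 was again called from a low control level. Sprr1a had 18.6 and 11.6 in controls and 81.5 and 81.0 in GS4T (15.1 ± 4.92 against 81.3 ± 0.330, SD, n = 2), 5.23-fold (2.39, SE 0.45, limma adjusted p = 0.0170). Plet1 had 6.85 and 3.87 against 30.1 and 116, 9.77-fold (3.29, SE 0.79, limma adjusted p = 0.0339), again through the filter by the knockout libraries only (adjusted p = 0.0344 with no filter). They were 2 of 7 members called, or 1 leaving out Plet1, with 14% of all genes. Sprr1a lost its call without any one of the 4 libraries (adjusted p = 0.0555 to 0.0803), and Plet1 without control library 1 (0.0997), control library 2 (0.137) or GS4T library 2 (0.0912).

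Ly6a had 7324 and 7216 in distal controls and 4204 and 4566 in GS4T, a log2 fold change of -0.73 (SE 0.11, limma adjusted p = 0.00874) that did not reach the fold required. Clu had 1460.0 and 345 against 2769.8 and 3468 (2.13, SE 0.62, limma adjusted p = 0.0582). Sprr2h had 0 and 0 against 1.77 and 12.9, and Lor 1.96 and 0.968 against 9.74 and 14.1, both under the filter on low values. Anxa1 had 4869 and 4931 against 5399.7 and 5399. In all, 6 members were above and 1 below the controls, with Sprr2h and Lor, under the filter, among those above. Of the genes that passed the filter, 67.5% were without overlap.

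In stroma with Alk3 knocked out limma called 0 members. In the proximal colon Clu had 216 and 401 in controls and 554 and 1054 in GA3T (1.37, SE 0.43, limma adjusted p = 0.177), Plet1 2.18 and 10.8 against 38.1 and 52.1 (2.90, SE 0.82, limma adjusted p = 0.158) and Sprr1a 0 and 34.5 against 37.1 and 44.6 (2.81, SE 1.73, limma adjusted p = 0.406). Ly6a had 12561 and 9005 against 7671 and 4815 (-0.81, SE 0.29, limma adjusted p = 0.208) and Anxa1 7908 and 6370.5 against 5416 and 4977 (-0.45, SE 0.15, limma adjusted p = 0.198). All 5 were without overlap, 3 above and 2 below, where 56.4% of all genes were.

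In the distal colon Sprr1a had 21.2 and 13.2 against 65.4 and 43.6 (1.61, SE 0.51, limma adjusted p = 0.206), Plet1 7.81 and 4.41 against 31.6 and 36.1 (2.33, SE 0.62, limma adjusted p = 0.170) and Lor, under the filter, 2.23 and 1.10 against 15.0 and 9.57. Ly6a had 8356 and 8212 against 6470.1 and 4936 and Anxa1 5554 and 5612 against 5299 and 3829.6, and Clu, at 1666 and 392 against 1969 and 1177, overlapped. That is 3 above, Lor among them, and 2 below, against 54.3% of the genes that passed the filter. Plet1 again passed the filter on low values only through the knockout libraries in both segments. By limma 0.0522% of all genes passed proximally and 0% distally, and edgeR called 0 members and 0 genes in both. At an unadjusted p below 0.05 with the fold there were 2 members in each segment (9.45% and 7.77% of all genes), and DESeq2 called 1, Clu in the proximal colon (adjusted p = 0.0293, with 6.29% of all genes), and 0 in the distal colon (5.03%). Sprr2h in both segments and Lor in the proximal colon were not analysed there.

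**Figure D3:**
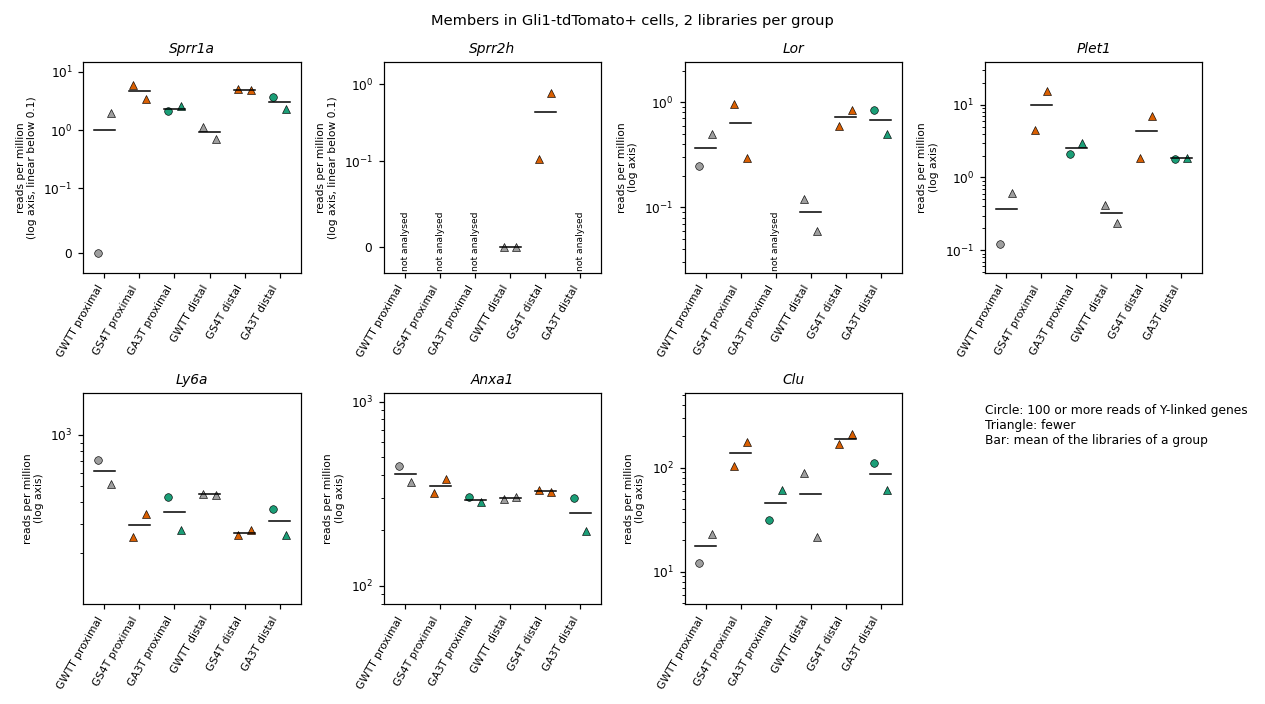
RPM of each member (log axis, linear near 0 where a value is 0) in Gli1-tdTomato+ stromal cells, with 2 libraries per group, proximal and distal colon, both knockouts beside the same controls. Plet1 is at 0.122 to 0.619 in the control libraries and at 1.78 to 15.4 in the knockout libraries, and Ly6a is lower in every knockout library than in its controls.

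Epithelial transcripts also differed between these stromal groups. The 5 epithelial markers, all listed, summed to 10.5 to 374 RPM in proximal GWTT, 917 to 1177 in GS4T and 368 to 579 in GA3T, and to 43.6 to 131, 526 to 1024 and 328 to 752 in the distal colon. Per 1000 reads of these markers, Plet1 had 1.65 to 13.1 reads in the 12 Gli1-tdTomato+ libraries and 5.32 to 57.2 in the 12 Muc2-mCherry+ libraries. For Sprr1a the ranges were 0 to 26.0 and 0.619 to 5.19, and for Clu 61.5 to 2045 and 0.159 to 6.46. By group, the Clu ratio in the proximal colon was 1157 and 61.5 in GWTT, 113 and 148 in GS4T and 84.3 and 104 in GA3T. In the distal colon it was 2045 and 162 in GWTT and 322 and 203 in GS4T. These knockout libraries overlapped their controls. The control at 1157 had the epithelial sum of 10.5 RPM and the control at 2045 that of 43.6 RPM, so these ratios have small denominators.

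Immune markers differed in the same libraries. The 6 macrophage markers, all listed, summed to 152 to 229 RPM in proximal GWTT, 768 to 1337 in GS4T and 669 to 1219 in GA3T, and to 459 to 592, 918 to 1733 and 613 to 889 in the distal colon. The 5 neutrophil markers summed to 2.63 to 4.39, 35.0 to 50.3 and 9.76 to 31.9 proximally and to 3.52 to 4.95, 132 to 149 and 10.0 to 12.1 in the distal colon. The part of epithelial or immune cells in the stromal values of the members was not tested. Markers of the squamous epithelium of the anal canal (Krt5, Krt14, Trp63, Krt13 and Krt4, where listed) summed to at most 6.01 RPM in every group except IL-1 organoids at 72 h, where the highest library had 23.6.

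**Figure D4:**
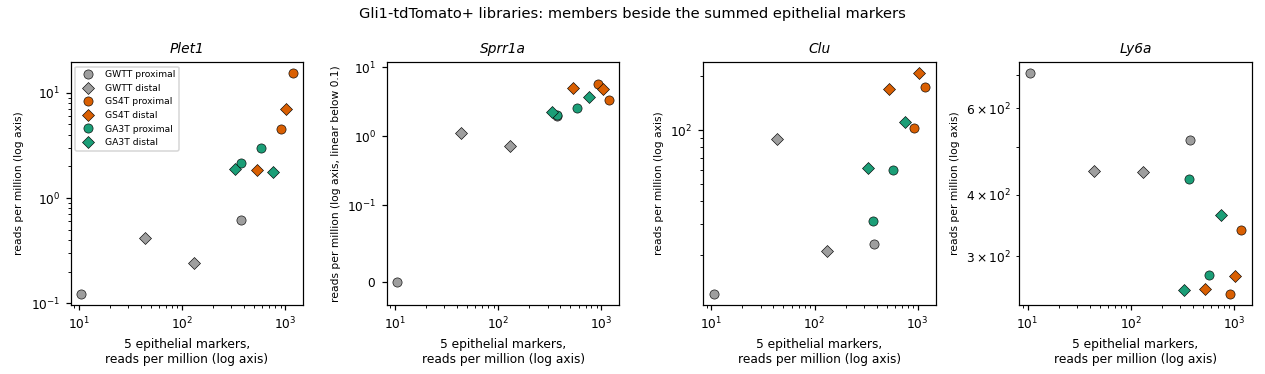
RPM of Plet1, Sprr1a, Clu and Ly6a in the 12 Gli1-tdTomato+ libraries against the sum of 5 epithelial markers (RPM, log axes, linear near 0 for Sprr1a). In the proximal colon the GS4T libraries have the highest epithelial sums and the most Plet1 reads, and the control library with an epithelial sum of 10.5 has 0 reads of Sprr1a.

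Related genes also passed the test in GS4T stroma. In the proximal colon 9 of 39 tested rose and 2 fell, where 5.24% and 4.35% of all genes did, with a median log2 fold change of 1.16 against 0.022 over all genes. Among those that rose were Krt7, a simple-epithelial keratin (6.20 and 89.1 to 900.1 and 1364), the IL-1 receptor antagonist Il1rn (57.9 and 111 to 1249.6 and 884, 3.70, limma adjusted p = 0.00780), Anxa8 (53.8 and 76.9 to 444 and 528, 2.89, limma adjusted p = 0.00697) and the EGF receptor ligand Ereg (2361 and 1084 to 6420.4 and 11167, 2.40, limma adjusted p = 0.0277). Ly6g, also called, had 0 and 0 against 452 and 331 and so passed the filter only through the knockout libraries. The genes that fell were Ppl, periplakin (737 and 774 to 131 and 158, -2.38, limma adjusted p = 0.00535), and Ly6c2 (597 and 715 to 50.7 and 101, -3.17, limma adjusted p = 0.0104). The count of 11 was 0 without GS4T library 1, 3 without GS4T library 2, 17 without control library 1 and 19 without control library 2.

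In the distal colon of GS4T mice 20 of 41 rose and 3 fell, where 7.87% and 6.09% of all genes did, with a median of 1.02 against 0.0048 over all genes. Here squamous genes were among them: Sprr2a3 (35.2 and 41.6 to 253 and 699, 3.42, limma adjusted p = 0.00785), the desmosomal Pkp1 (6.85 and 5.81 to 57.6 and 115, 3.5, limma adjusted p = 0.0105), Perp (18.6 and 52.3 to 198 and 512, 3.31, limma adjusted p = 0.0183) and Sfn (64.5 and 120.0 to 309 and 529.6, 2.19, limma adjusted p = 0.0153). Cldn4 (5.17, adjusted p = 0.00545), Krt7 (4.44, adjusted p = 0.00178) and Anxa8 (4.30, adjusted p = 0.000592) rose by limma too. Ppl, Ly6c2 and Ly6i fell by 2.87, 5.05 and 2.42 on the log2 scale (limma adjusted p = 0.00354, 0.00972 and 0.0466). Sprr2a3 has near-identical copies that could share its reads. Of the 20 genes, 4 passed the filter only through the knockout libraries, namely Pkp1, Sprr2a1, Ankrd1 and Ly6g. The count of 23 was 9 without control library 1 and 15 without control library 2. The epithelial marker sum given above was higher in the same knockout libraries, and its part in these counts was not tested.

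In GA3T stroma limma called 0 of 41 related genes in the proximal and 0 of 40 in the distal colon. The counts at an unadjusted p were 12 and 19 (9.45% and 7.77% of all genes), and DESeq2 called 7 and 14 (6.29% and 5.03%). In the proximal colon the values named for the smallest p included Basp1 (734 and 514 against 1343 and 1794, 1.34, limma adjusted p = 0.0873) and Il1rn (60.9 and 116 against 339.7 and 678, 2.50, limma adjusted p = 0.0946). In the distal colon they included Krt7 (31.2 and 48.5 against 359 and 284, 3.00, limma adjusted p = 0.0764) and Pkp1 (7.81 and 6.61 against 98.5 and 75.5, 3.41, limma adjusted p = 0.0948). Pkp1 passed the filter on low values there only through the knockout libraries.

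Whether a knockout acted differently in the 2 segments was tested for each member as a difference of differences by limma, with each difference taken within its own table. The test passed for none of the members in GS4M2, GA3M2, GS4T or GA3T, where 0%, 0%, 0.183% and 0% of all genes passed. The largest was Clu in GS4M2, where the distal difference was lower than the proximal one by 3.39 on the log2 scale (SE 0.52, limma unadjusted p = 0.000283, adjusted p = 0.319).

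**Figure D5:**
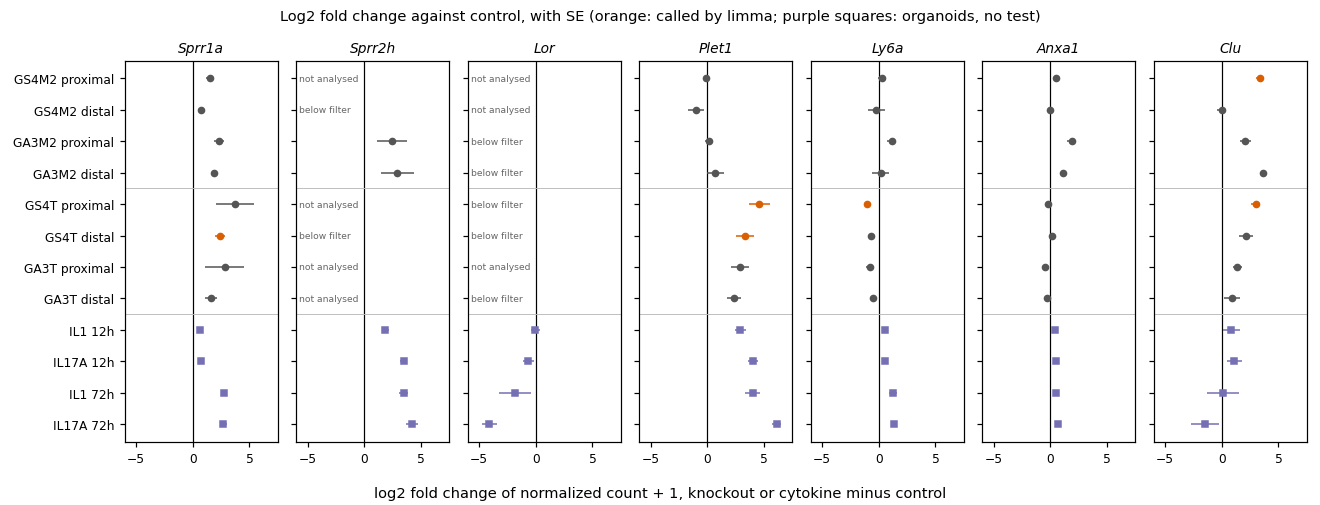
Log2 fold change of each member (horizontal axis, knockout or cytokine against control, with SE) in the 8 comparisons of sorted cells, orange where called by limma, and in the 4 of organoids (purple squares, not tested). Clu in proximal GS4M2 goblet cells, Clu, Plet1 and Ly6a in proximal and Sprr1a and Plet1 in distal GS4T stroma are the called values, and every value of Sprr1a lies above 0.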

How the data were processed

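Members and gene lists were chosen with earlier results of these data known. RNA sequencing libraries (SMARTER mRNA-Seq kit) were aligned by the authors with STAR 2.5.3 to mm10. The deposited tables hold counts normalized by the authors with DESeq2 1.28.1, a signal with 1 size factor per library. The counting program, annotation and strand are not given in the sources used here. Rows with no gene name (4 in each GS4M2 table, up to 28.2% of a library's values) and date-like names (17 to 21 per table) were left out. Tables were fitted alone, since each was normalized separately, except in the segment test, which joined the proximal and distal tables of a genotype with a term for the table. Libraries with at least 100 reads of 4 Y-linked genes were taken as male.

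The deposited values were used as log2(normalized count + 1) for genes with a mean of at least 10 in limma 3.58.1 (moderated test with a trend, R 4.3.3), without covariates, and calls needed a p below 0.05 after Benjamini-Hochberg adjustment with a log2 fold change of at least 1. The genes named from the lists were, per list and comparison, up to 4 with the largest change among those called, or up to 2 with the lowest p where none was called, and not all of them are printed. Genes alike a member were the 3 with the highest Pearson r over the organoid libraries. In the steps of the deposited values, 100% came out as whole reads within 0.1, and these recovered reads were tested with edgeR 4.0.16 (quasi-likelihood) and DESeq2 1.42.0 as alternatives, and scaled to a common total (RPM) for levels. Other settings tried were a pseudocount of 0.1 or 10, no filter on low values, a minimum mean of 50, upper-quartile rescaling, the replicate number as a block and leaving out each library, and, chosen after the data were seen, library sex as a block and averaging near-identical libraries. The fits were tested on simulated counts. Sequences are from RefSeq (GRCm38.p6), where promoters of 5 of 7 members were found.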

Additional observations from a re-analysis of the deposited data

Results flagged for a closer look

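With Alk3 knocked out in Gli1+ cells, Ly6a in the proximal colon and Anxa1 in both segments were above their controls in every goblet cell library and below them in every stromal library, in normalized counts. On the RPM scale distal stromal Anxa1 overlapped, at 199 to 298 in GA3T and 297 to 304 in GWTT. Ly6a in the distal colon is not among them, since its goblet cell libraries overlapped. The log2 fold change of Ly6a was 1.13 in proximal goblet cells (GA3M2) and -0.81 in proximal stroma (GA3T). That of Anxa1 was 1.88 in proximal goblet cells and -0.45 in proximal stroma, and 1.14 in distal goblet cells and -0.31 in distal stroma. None of these 6 values passed the limma test on its own. The differences between the cell types were not tested. Groups of 2 and 3 libraries were too small to look for samples far from the others.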

How the results depend on the processing

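Members called in the sorted cells changed with these settings. The share of all genes called changed too, in proximal GA3M2 from 0.09% by limma to 3.23% by DESeq2. Shares for the blocks and for leaving out 1 library are not given in this section, so nothing about the members is read from those counts. By DESeq2 the counts were 2 in proximal GS4M2, 3 in proximal and 3 in distal GA3M2 and 1 in proximal GA3T. By an unadjusted p they were 2 in proximal GS4M2, 4 and 3 in proximal and distal GA3M2, and 2 and 2 in proximal and distal GA3T. With the replicate block they were 2 in proximal GS4M2, 4 in proximal GA3M2, 1 in proximal GA3T, 2 in proximal GS4T (without Ly6a, adjusted p = 0.0541) and 3 in distal GS4T (with Clu, adjusted p = 0.0319). Library sex as a block gave 1 in proximal GA3T, where it is the same split as the replicate number. In distal GA3M2 that block leaves control library 2 alone as control, so nothing is read from its count above. A mean of at least 50 left 0 in distal GS4T, since it removes Sprr1a and Plet1. Leaving out 1 library gave 0 to 1 in proximal and 0 to 1 in distal GS4M2, 0 to 2 in proximal and 0 to 6 in distal GA3M2, 0 to 4 in proximal and 0 to 1 in distal GS4T, and 0 in proximal GA3T.

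For the related genes, DESeq2 called 3 and 4 (proximal and distal GS4M2), 8 and 5 (GA3M2), 7 and 14 (GA3T), 1 and 2 (IL-1 and IL-17A at 12 h) and 13 (IL-17A at 72 h). An unadjusted p gave 5 and 5, 11 and 6, 12 and 19, 2 and 3, and 11 in the same order, and 20 in proximal GS4T. The replicate block gave 4 in proximal GS4M2, 12 and 2 in GA3M2, 2 and 1 in GA3T, 1 and 2 at 12 h, and 0 with IL-17A at 72 h. Library sex as a block gave 2 in proximal GA3T and 1 with IL-17A at 12 h. Averaging near-identical libraries gave 0 with IL-17A at 72 h. In GS4M2, GA3M2, distal GA3T and with IL-17A at 72 h the sex block leaves 1 library of a group to compare, so its counts are not given. A pseudocount of 10 gave 1 in proximal GA3M2 and 17 in proximal GS4T. Shares of all genes are not given here for the blocks, the pseudocount or leaving out 1 library, so nothing about the related genes is read from those counts. Leaving out 1 library gave 1 to 2 and 0 to 3 (GS4M2), 0 to 16 and 0 to 9 (GA3M2), 0 to 19 and 9 to 16 (GS4T), 0 to 3 and 0 to 7 (GA3T), and 0 to 16 with IL-17A at 72 h.

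Signs turned for small log2 fold changes. With the sex block, which in GS4M2 leaves only control library 2 as control, Plet1 was 0.16 in proximal and 0.14 in distal GS4M2. Ly6a was 0.90 and Anxa1 0.032 in distal GS4M2. Anxa1 there was also 0.014 with upper-quartile rescaling, 0.0031 with edgeR and 0.0064 with DESeq2, and Ly6a in distal GA3M2 was -0.15 with edgeR and DESeq2. Leaving out 1 library took Plet1 from -0.37 to 0.16 and Ly6a from -0.29 to 0.83 in proximal GS4M2, and in distal GS4M2 Plet1 from -2.15 to 0.14, Ly6a from -1.36 to 0.90, Anxa1 from -0.18 to 0.17 and Clu from -0.13 to 0.089. It took Plet1 from -0.25 to 0.60 in proximal GA3M2, Plet1 from -0.46 to 1.82 and Ly6a from -0.95 to 1.30 in distal GA3M2, and Clu from -0.13 to 1.95 in distal GA3T. Of 573 single values in sorted cells 477 kept direction and side of the threshold. Of 448 in organoids 443 moved by less than the replicate spread, and the others were Sprr2h with IL-17A at 12 h (3.00 with the block) and, with IL-17A at 72 h, Lor (-3.10 with a pseudocount of 10, -2.92 with the sex block), Ly6a (1.79) and Anxa1 (0.87) with the sex block. With IL-17A at 72 h the sex block rests on control library 1 alone. The causes were not tested. Samples with the same replicate number were not treated as pairs, since the labels tie nothing to the numbers and each comparison shares only 2 of them. Deviations from group means correlated at -0.06 to 0.30 in sorted cells, 0.62 to 0.64 in organoids at 12 h, where the number also goes with the sex of the library for numbers 1 and 4, and -0.19 to 0.20 at 72 h. With 2 libraries per group, only large and even differences can pass.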
